A study of Homo sapiens with 94 samples.

Results

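The genes described here are 9 genes of the epithelial-mesenchymal transition (EMT): the transcription factors SNAI1, SNAI2, TWIST1, TWIST2, ZEB1 and ZEB2, the cadherins CDH1 and CDH2, and the intermediate filament gene VIM. They were taken by symbol from a table of 20239 genes, each of the 9 has 1 entry in it, and all 9 were above the filter on low values that left 13036 genes for testing. The level of each gene was measured in 94 tumors, of which 91 enter the results. The tumors were grown under the skin of SCID mice from NCI-H226, an established human mesothelioma line that lacks the Hippo pathway regulator NF2. SCID mice have no working T and B cells but keep other leukocytes, and the vessels and stroma of such a tumor are of mouse origin.

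All mice carried the same cells and stood in 19 groups of 3 studies that differed in the time from dosing to removal of the tumor: 1 h, 3-6 h and 24 h. In each study, 1 group of 5 mice was left untreated, and the others received a single oral dose of the vehicle (ethanol, Solutol and injectable glucose) or of K-975 at 30, 100 or 200 mg/kg. K-975 is a small molecule that blocks the palmitoylation of TEAD proteins, the DNA-binding partners of the Hippo pathway coactivator YAP1. At 1 h and 24 h each arm was 1 cage group of 5 mice, with 4 tumors for vehicle at 24 h, so that cage and arm cannot be told apart there. At 3-6 h each dosed arm was 2 cage groups of 5 mice (vehicle 2 and 3, 200 mg/kg 4 and 5, 100 mg/kg 6 and 7, 30 mg/kg 8 and 9), and the labels do not say which of them was taken at 3 h and which at 6 h. The vehicle and the highest dose had a volume of 20 mL/kg but the lower doses one of 10 mL/kg, so the lower doses differ from vehicle in volume too.

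In EMT, cells that are joined in a sheet lose their cell-cell junctions and take on the shape, the matrix and the motility of mesenchymal cells. The SNAI and ZEB zinc finger proteins bind E-box sequences and repress epithelial genes, CDH1 above all, and the TWIST proteins are helix-loop-helix factors that bind related E-boxes. CDH1 encodes E-cadherin, the adhesion protein of epithelial junctions. CDH2 encodes N-cadherin, which takes its place in many mesenchymal cells, and VIM encodes vimentin, the main filament protein of these cells. Mesothelial cells, from which mesothelioma arises, carry N-cadherin and vimentin together with keratins, so a mixed state of these markers is usual in this tissue.

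The set of RefSeq promoter windows used here (GRCh38.p14) held 12 windows for 5 of the 9 genes (TWIST2, ZEB1, ZEB2, CDH2 and VIM). Windows of SNAI1, SNAI2, TWIST1 and CDH1 were not in this set, so these genes were not searched. The 250 bases before each start were searched on both strands for the E-box letters CACCTG and CAGCTG, which ZEB, SNAI and TWIST proteins can bind, and for GGAATG, the core of the TEAD motif. CACCTG was in 2 of the 12 windows, both of ZEB1, CAGCTG in 1, also of ZEB1, and GGAATG in 0. ZEB1 alone has 7 of the 12 windows, which lie close together, so the 12 are not independent promoters. Of all 35116 promoter windows, 17.5%, 14.0% and 11.9% hold these letters in the same stretch. The stretches before the first listed start of ZEB1 (chr10:31318167-31318416, plus strand) and before the start of VIM (chr10:17227991-17228240, plus strand) are shown, since both genes were higher in the same cage group at 3-6 h. Capitals mark a match, here CAGGTG, which is CACCTG read on the other strand, from 57 bases before the start of ZEB1, and VIM has no match in this stretch.
ZEB1: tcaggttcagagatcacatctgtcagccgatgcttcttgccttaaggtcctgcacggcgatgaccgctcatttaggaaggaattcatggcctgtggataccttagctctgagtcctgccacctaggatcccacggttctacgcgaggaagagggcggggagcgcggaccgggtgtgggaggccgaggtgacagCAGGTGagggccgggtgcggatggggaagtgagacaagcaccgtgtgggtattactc
VIM: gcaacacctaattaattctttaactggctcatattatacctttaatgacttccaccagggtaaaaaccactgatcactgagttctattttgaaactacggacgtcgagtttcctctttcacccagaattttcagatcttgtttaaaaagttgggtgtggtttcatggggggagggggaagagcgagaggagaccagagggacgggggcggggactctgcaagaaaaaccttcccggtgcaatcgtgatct
A match is a description of these letters and not a bound site.

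On GRCh38, with the start and end that the table gives and the strand of GENCODE 29, SNAI1 (ENSG00000124216.3) lies on chromosome 20 at 49982999-49988886 on the plus strand and SNAI2 (ENSG00000019549.9) on chromosome 8 at 48917768-48921429 on the minus strand. TWIST1 (ENSG00000122691.12) lies on chromosome 7 at 19113047-19117672 on the minus strand and TWIST2 (ENSG00000233608.3) on chromosome 2 at 238848032-238910543 on the plus strand. ZEB1 (ENSG00000148516.21) lies on chromosome 10 at 31318495-31529814 on the plus strand and ZEB2 (ENSG00000169554.18) on chromosome 2 at 144364364-144520395 on the minus strand. CDH1 (ENSG00000039068.18) lies on chromosome 16 at 68737225-68835548 on the plus strand, CDH2 (ENSG00000170558.8) on chromosome 18 at 27950966-28177446 on the minus strand, and VIM (ENSG00000026025.15) on chromosome 10 at 17228259-17237593 on the plus strand. All are protein-coding. The start of ZEB1, ZEB2 and VIM overlaps an antisense gene (ZEB1-AS1, ZEB2-AS1 and VIM-AS1), and other antisense genes overlap TWIST1, CDH1 and CDH2. Whether the counting used the strand is not stated, so reads of these antisense genes cannot be told apart from those of the gene.

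Levels are FPKM, which count fragments relative to transcript length and library size, and fold changes and their standard errors (SE) are on log2(FPKM + 1), which understates the change of genes with low values. A gene is said to have risen or fallen where limma's test gave a Benjamini-Hochberg adjusted p under 0.05 over the 13036 genes. The files hold no counts, so the depth of each library is unknown. Between 11344 and 11665 genes had an FPKM of at least 1 in the 91 libraries used. The other 3 libraries held 702, 7196 and 8531 such genes (30 mg/kg at 24 h replicate 1, 100 mg/kg at 24 h replicate 5 and 200 mg/kg at 1 h replicate 1) and listed 6, 4 and 3 of the 9 genes at 0, so they are left out here and put back as an alternative. A relative depth ran from 0.445 to 1.84 around a median of 1. It was read from genes detected in only 10 to 30 of the 91 libraries, whose values above 0 are smaller where a library is deeper. The mesothelial markers were present as the label of the line implies: KRT5 had a mean of 933 FPKM and CALB2, which encodes calretinin, 613 FPKM. Of the defining markers of other cell types, HBB and CLDN5 were listed at 0 in 91 of 91 libraries, CD3E in 90, LYZ in 83 and PECAM1 in 79. Other markers were detected in all 91: CD68, a macrophage marker, at 40.5 to 265 FPKM, KDR, an endothelial receptor, at 23.1 to 135 FPKM, and CD14, ITGAM, CDH5 and VWF at means of 1.06 to 2.74 FPKM. PTPRC, the common leukocyte marker, was at 0 in 24. Of the fibroblast markers, COL1A1 (594 FPKM on average), COL3A1 (292) and PDGFRB (32.6) were detected in all 91, and PDGFRA was at 0 in 24. The leukocyte sums given here are therefore nearly all CD68 (138 FPKM on average), and the fibroblast sums mostly COL1A1 and COL3A1, genes that are not limited to these cell types. KDR, at 66.3 FPKM on average, stood far above CDH5 and VWF, so it alone does not give the amount of endothelial cells. The processing notes name the human genome, and the treatment of mouse reads is not given. Whether these markers were read from mouse host cells or from the human tumor cells was not tested.

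The 9 genes spanned a wide range of levels, from VIM at 715 FPKM on average over the 91 tumors to SNAI1 at 1.90 FPKM. VIM was followed by CDH2 at 113 FPKM, ZEB1 at 16.3, CDH1 at 12.1, ZEB2 at 6.71, TWIST1 at 5.25, TWIST2 at 3.32 and SNAI2 at 2.83 FPKM. Among all genes with a value above 0 in any of these libraries, VIM stood at percentile 99.6, CDH2 at 95.5 and SNAI1 at 36.8. VIM was above CDH2 and CDH2 above ZEB1 in 91 of 91 tumors. Lower in the order the neighbours overlapped: ZEB1 was above CDH1 in 65 tumors, CDH1 above ZEB2 in 61, ZEB2 above TWIST1 in 61, TWIST1 above TWIST2 in 78, TWIST2 above SNAI2 in 54 and SNAI2 above SNAI1 in 71. Libraries were enriched with capture probes, so the order of different genes also depends on how well each was captured.

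The N-cadherin gene was above the E-cadherin gene in every one of the 91 tumors. The ratio of CDH2 to CDH1 had a median of 10.3 and ran from 3.88 to 50.1. Its lowest values were those of the 3-6 h study, where the untreated tumors had a mean ratio of 6.89 ± 2.25 (SD, n = 5), against 20.2 ± 8.00 at 1 h and 27.3 ± 18.5 at 24 h (SD, n = 5 each). The spread between tumors of a group was smallest for the abundant genes. The coefficient of variation within a group had a median of 5.87% for CDH2 and 5.91% for VIM, 15.3% for ZEB1 and 20.3% for ZEB2. It was 32.0% for TWIST2, 33.3% for SNAI2, 35.0% for TWIST1, 35.6% for CDH1 and 49.4% for SNAI1, so a change of a given size is harder to see in these 5 genes.

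**Figure D1:**
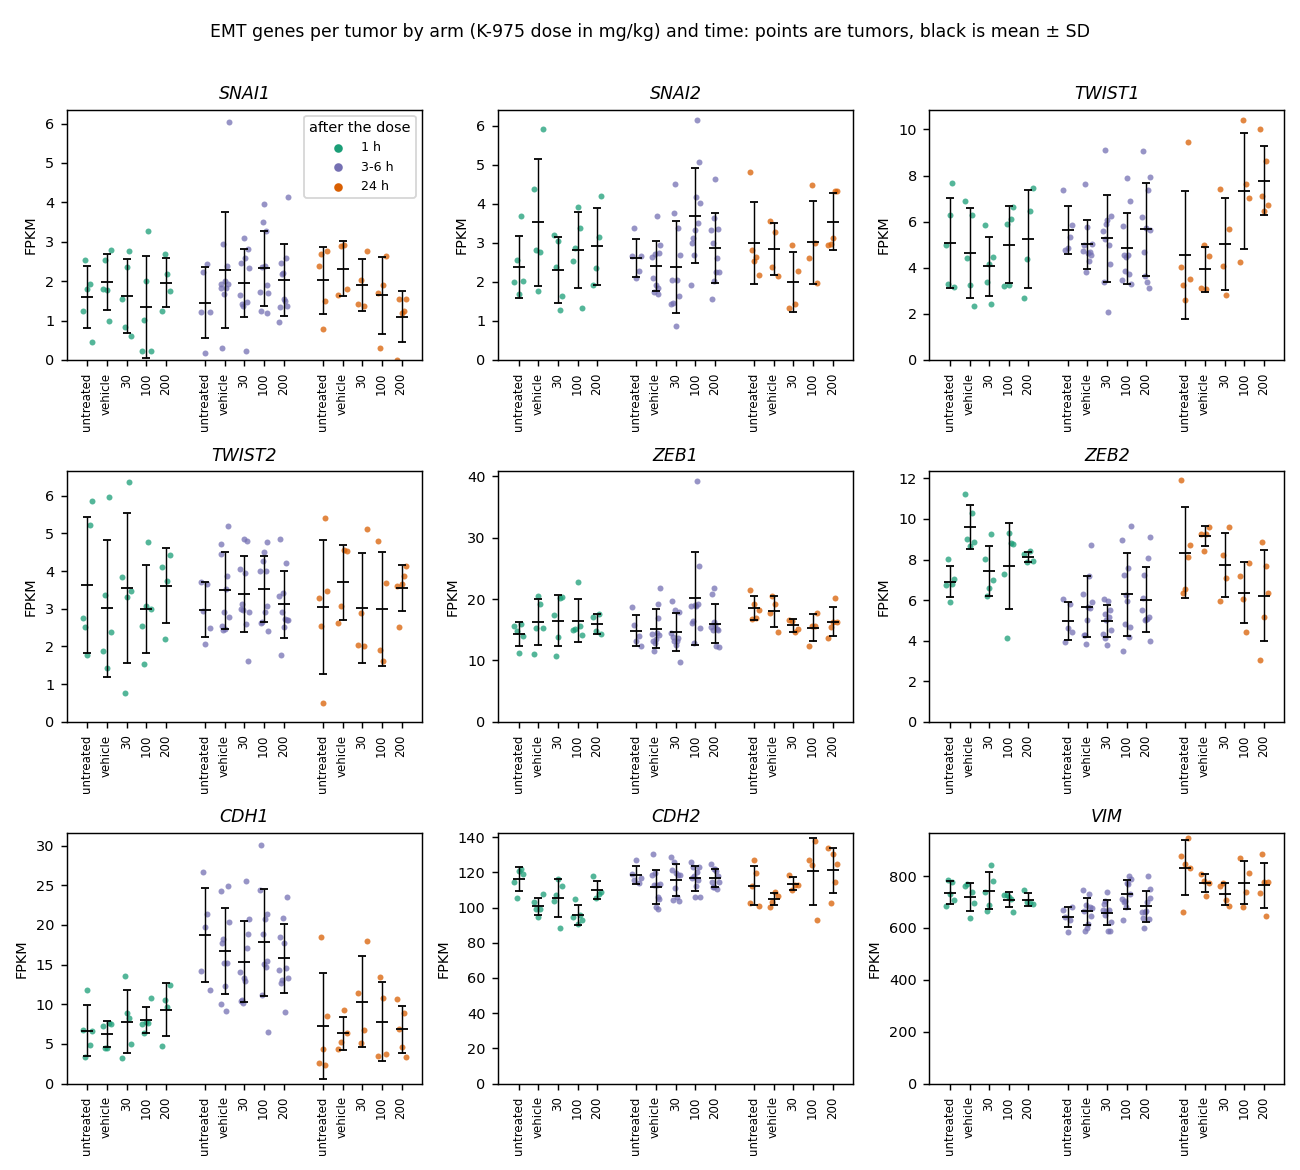
FPKM of each of the 9 genes (vertical axis, from 0) in 91 tumors by arm (untreated, vehicle, K-975 at 30, 100 or 200 mg/kg) and time after the dose (colors); points are tumors and black bars are the mean ± SD of an arm, with both cage groups of an arm together at 3-6 h. The mean of CDH1 is higher in the 3-6 h study than in the others in every arm, and TWIST1 at 24 h is at 7.79 FPKM on average with 200 mg/kg against 3.93 with vehicle.

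Untreated tumors of the 3-6 h and 24 h studies already differed in CDH1, VIM and ZEB2. None of the 9 genes was called between 3-6 h and 1 h or between 24 h and 1 h. This comparison was added after the levels per group had been seen, and study, time and any batch of the libraries cannot be told apart in it. CDH1 in untreated tumors was 14.1, 26.7, 19.7, 21.3 and 11.9 FPKM at 3-6 h. It was 6.79, 3.40, 11.8, 4.82 and 6.63 FPKM at 1 h, and 2.60, 18.5, 4.40, 2.38 and 8.49 FPKM at 24 h. All 5 tumors at 3-6 h were above all 5 at 1 h, while 1 tumor at 24 h reached into the range of 3-6 h. The difference of 3-6 h from 24 h was 1.54 (SE 0.34, limma adjusted p = 0.00351), where 4.36% of all genes passed the test. The difference of 3-6 h from 1 h was 1.40 (SE 0.34, limma adjusted p = 0.0652), with 0.0997% of genes called.

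VIM went the other way. It was 586 to 683 FPKM in untreated tumors at 3-6 h, with a median of 642, against 661 to 947 FPKM at 24 h, with a median of 848, and 686 to 785 FPKM at 1 h, with a median of 729. The difference of 3-6 h from 24 h was -0.37 (SE 0.07, limma adjusted p = 0.00108), and that from 1 h was -0.20 (SE 0.07, limma adjusted p = 0.281), although none of the 5 tumors at 3-6 h reached the lowest at 1 h. ZEB2 was also lower at 3-6 h than at 24 h, at 4.96 ± 0.93 against 8.33 ± 2.24 FPKM (SD, n = 5 each), a difference of -0.63 (SE 0.19, limma adjusted p = 0.037), and no tumor of one group reached the other. The ZEB2 call was lost in 6 of the 10 fits without 1 tumor (untreated replicates 2, 3 and 5 of 3-6 h and 1, 4 and 5 of 24 h), with differences of -0.71 to -0.51 and adjusted p up to 0.175 in all 10. The calls of CDH1 and VIM held in all 10. With 0.00767% of genes called between 24 h and 1 h, none of the 9 was among them.

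In the other lists, untreated tumors at 3-6 h were lower than those at 24 h for 8 of 33 mesenchymal genes tested and higher for 1. Among them the protease gene MMP3 differed by -2.77, LOX, which encodes a collagen cross-linking enzyme, by -1.46, and NT5E by -1.23. Of 26 epithelial genes tested, 2 were higher and 1 lower. The difference was -1.07 for CD68 and 1.04 for KDR. Of the other endothelial markers, PECAM1, TEK and CLDN5 were under the filter. Neither CD68 nor KDR alone gives the amount of a cell type. Whether the mix of cells moves the values of CDH1, VIM or ZEB2 was not tested. Because of these differences, every effect of K-975 is given within its own study.

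Vehicle against untreated tumors showed no call among the 9 genes in any study, nor among all genes (0% called at 1 h, at 3-6 h and at 24 h), while 616, 629 and 547 of them had an unadjusted p below 0.05. At 1 h, ZEB2 was 9.61 ± 1.1 FPKM with vehicle and 6.91 ± 0.76 untreated (SD, n = 5 each), and each of the 5 vehicle tumors was above each untreated one. CDH2 at 1 h was 101 ± 4.96 FPKM with vehicle and 116 ± 6.82 untreated (SD, n = 5 each). By limma the unadjusted p was 0.0273 for ZEB2 and 0.00502 for CDH2, and the adjusted p was 1 and 0.873, so neither passed.

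K-975 at 1 h left the 9 genes without a call at any dose. Across all genes, the share called was 0% for the lowest dose, 0.00767% for 100 mg/kg and 0% for the highest, and 571 and 435 genes had an unadjusted p under 0.05 at 30 and 200 mg/kg. The dose trend (the slope per step from vehicle over 30 and 100 to 200 mg/kg) gave 0% of genes called by limma as well, with 439 at an unadjusted p under 0.05. CDH1 had a mean of 6.28 FPKM with vehicle, 7.80 at 30, 8.02 at 100 and 9.31 at 200 mg/kg, a slope of 0.15 per step with a 95% interval of -0.07 to 0.38. VIM at 200 mg/kg differed from vehicle by -0.02 (95% interval -0.17 to 0.12). For SNAI1 the interval at 200 mg/kg ran from -0.67 to 0.67, so that a change of that size was not detectable.

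At 3-6 h, with both cage groups of an arm weighted equally, none of the 9 genes was called at 30, 100 or 200 mg/kg, against a background of 0.0153%, 0.430% and 0.0690% of all genes, or in the dose trend, where 0.414% were called. At 100 mg/kg, 3 of the 9 had an unadjusted p under 0.05, and all 3 were higher. ZEB1 had 20.1 ± 7.53 FPKM against 15.2 ± 3.16 with vehicle (SD, n = 10 each; log2 fold change 0.34, limma adjusted p = 0.181), SNAI2 3.70 ± 1.22 against 2.40 ± 0.65 FPKM (0.45, limma adjusted p = 0.238), and VIM 729 ± 54.6 against 664 ± 52.4 FPKM (0.13, limma adjusted p = 0.258). At 200 mg/kg the same 3 genes differed from vehicle by 0.07, 0.17 and 0.04, with a limma adjusted p of at least 0.887 each.

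The cage groups of each arm were then set against vehicle one by one. Set against the 10 vehicle tumors, cage group 7 had higher SNAI2, ZEB1 and VIM, in a comparison with 1.33% of all genes called. Cage groups 6, 8, 9, 4 and 5 had none of the 9 called, with 0% of genes called by limma for cage groups 6 and 8 (653 and 643 at an unadjusted p under 0.05), 0.0307% for 9, 0.00767% for 4 and 0.276% for 5. These comparisons share the same vehicle tumors, which are cage groups 2 and 3 together. The labels do not give the hour of either cage group, so this control may mix tumors of 3 h and 6 h. The test of cage group 7 against cage group 6 itself was not run.

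SNAI2, which encodes the repressor Slug, was 4.17, 6.15, 3.52, 5.07 and 4.02 FPKM in cage group 7. In the 10 vehicle tumors it ran from 1.69 to 3.68 FPKM, and 4 of the 5 tumors were above all of them. The log2 fold change was 0.72 (SE 0.19, limma adjusted p = 0.037). Cage group 6, given the same dose, had 2.81 ± 0.55 FPKM of SNAI2 (SD, n = 5).

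ZEB1 was 18.9, 39.3, 19.2, 25.4 and 15.3 FPKM in cage group 7 against 11.5 to 21.7 FPKM with vehicle, so only 2 of the 5 were above all vehicle tumors. The log2 fold change was 0.56 (SE 0.14, limma adjusted p = 0.0191). VIM was 774, 771, 802, 731 and 790 FPKM in cage group 7 and 588 to 747 FPKM with vehicle, with 4 of 5 above, and a log2 fold change of 0.22 (SE 0.06, limma adjusted p = 0.0367). CDH1 was 15.8 ± 5.98 FPKM in cage group 7 (SD, n = 5) and 16.7 ± 5.44 with vehicle (SD, n = 10), a difference of -0.11 (SE 0.30, limma adjusted p = 0.908).

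These 3 calls rest on few libraries. Replicate 2 of cage group 7, with the highest ZEB1 and SNAI2, also has the lowest relative depth of all 91 libraries (0.445) and 5.87 FPKM of PDGFRA, a fibroblast marker. Other fibroblast markers were not high in it. In replicates 1 to 5 DCN was 4.29, 0, 2.78, 4.70 and 0 FPKM, and LUM 2.73, 1.34, 3.77, 2.16 and 0.88 FPKM. Without replicate 2 the log2 fold changes were 0.36 for ZEB1 (limma adjusted p = 0.19), 0.62 for SNAI2 (adjusted p = 0.121) and 0.22 for VIM (adjusted p = 0.0619). Without replicate 4 of that cage group, ZEB1 was at 0.51 (adjusted p = 0.069). Over the 15 fits without 1 tumor, ZEB1 kept its call in 13, SNAI2 in 8 and VIM in 7. Those without a call were, for SNAI2, replicates 3 and 5 of vehicle cage group 2, 2 and 3 of vehicle cage group 3 and 1, 2 and 4 of cage group 7, with fold changes of at least 0.62. For VIM they were replicates 3 and 5 of vehicle cage group 2, 1 and 4 of vehicle cage group 3 and 1, 2, 3 and 5 of cage group 7, with fold changes of at least 0.20. Against vehicle cage group 3 alone none of the 3 was called (ZEB1 0.37, SNAI2 0.65, VIM 0.21), with a limma adjusted p of 0.289, 0.158 and 0.144. Against vehicle cage group 2 alone ZEB1 was called (0.74, limma adjusted p = 0.00545). SNAI2 and VIM were not (limma adjusted p = 0.0569 and 0.0632).

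The relative depth of cage group 7 was 0.445 to 0.848, against 0.643 to 1.16 in the vehicle tumors. The summed level of the 6 fibroblast markers was 798 to 1160 FPKM against 616 to 971 FPKM, with overlap, and 1 of the 6, PDGFRA, was called (log2 fold change 0.92, limma adjusted p = 0.0424), at 0.33, 5.87, 0.27, 0.16 and 1.28 FPKM in the 5 tumors. Replicates 2 and 5 were above all vehicle tumors and the other 3 were not. The 6 leukocyte markers summed to 78.5 to 178 FPKM, inside the vehicle range of 45.9 to 268 FPKM, with none called. PTPRC was 0.10, 0, 8.2, 0.27 and 0 FPKM in the 5 tumors, and the value of replicate 3 was the highest of all 91 libraries. The part of depth, PDGFRA and PTPRC in the 3 calls was not tested. Without the 4 libraries of a relative depth under 0.7, and without the 12 libraries with an FPKM of at least 1 of PDGFRA or PTPRC, both alternatives chosen after seeing the data, none of the 3 was called, at fold changes of 0.33 and 0.53 for ZEB1, 0.64 and 0.74 for SNAI2 and 0.22 and 0.18 for VIM.

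**Figure D2:**
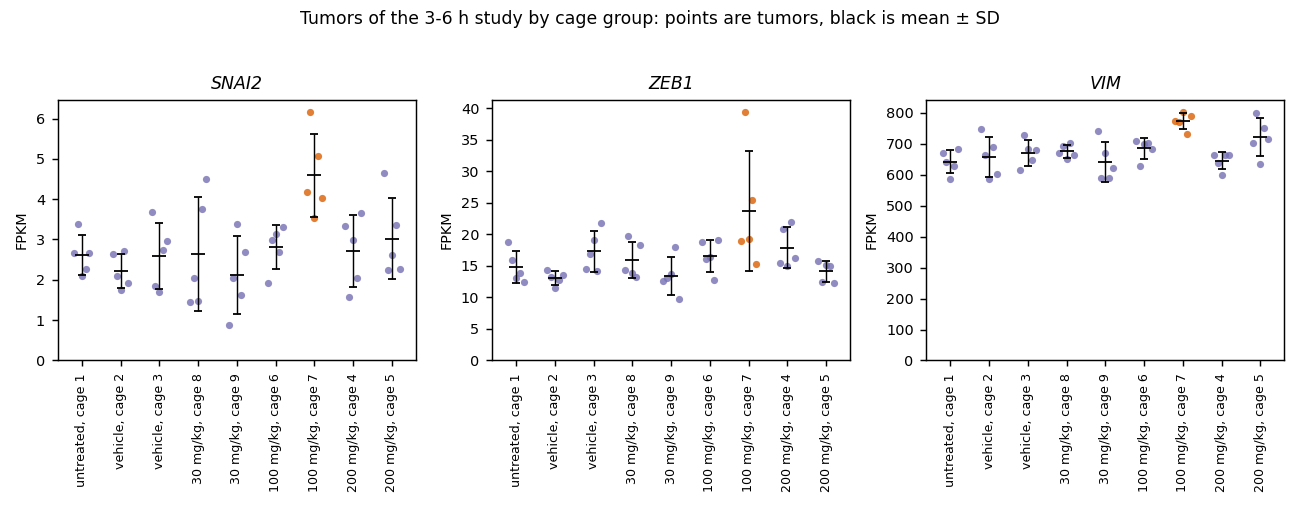
FPKM (vertical axis, from 0) of SNAI2, ZEB1 and VIM in the 45 tumors of the 3-6 h study by arm and cage group; points are tumors, black bars are the mean ± SD of a cage group, and orange marks cage group 7 (100 mg/kg). The mean of cage group 7 is 4.59 FPKM for SNAI2, 23.6 for ZEB1 and 773 for VIM, and 1 tumor at 39.3 FPKM of ZEB1 stands apart from the rest.

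In the same cage group, 4 of the 11 genes on the TEAD list were lower and none was higher. This list holds target genes of TEAD and also the pathway genes TEAD1, TEAD4, YAP1 and WWTR1. AMOTL2 had a log2 fold change of -0.82 and CCN1, which encodes the secreted protein CYR61, one of -1.04. CCN2 and TEAD4 were the other 2 of the 4. The scaffold gene AJUBA fell by 0.53, the epithelial splicing regulator ESRP2 by 0.59, the desmosomal gene PKP2 by 0.56 and the repressor partner PRMT5 by 0.44. At 100 mg/kg with both cage groups, AJUBA fell by 0.36, CCN1 by 0.78, CCN2 by 0.63 and AMOTL2 by 0.62, on the log2 scale. None of the mesenchymal genes tested (33) was called in either comparison.

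More genes were called at 24 h than at 1 h or 3-6 h, with 0.0384%, 1.12% and 7.41% of all genes called at 30, 100 and 200 mg/kg and 7.11% in the dose trend. At 200 mg/kg, 496 genes were higher and 470 lower. Of the 9 genes, 1 was called at 200 mg/kg and in the trend, and none at 30 or 100 mg/kg. This gene was TWIST1. Read against the 7.41% of all genes called, 1 of 9 is no result about the 9 genes as a group.

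TWIST1 was 3.13, 4.97, 3.09 and 4.52 FPKM in the vehicle tumors at 24 h. It was 7.43, 4.10, 2.82 and 5.70 FPKM at 30 mg/kg, 4.26, 10.4, 7.64 and 7.02 FPKM at 100 mg/kg, and 10.0, 7.10, 6.47, 8.63 and 6.72 FPKM at 200 mg/kg. All 5 tumors at the highest dose were above all 4 vehicle tumors, as were 3 of 4 at 100 mg/kg and 2 of 4 at 30 mg/kg. The means were 7.79 ± 1.5 FPKM (SD, n = 5) at 200 mg/kg and 3.93 ± 0.96 (SD, n = 4) with vehicle, a log2 fold change of 0.84 (SE 0.28, 95% interval 0.29 to 1.39, limma adjusted p = 0.0474). At 100 mg/kg it was 0.73 (SE 0.29, limma adjusted p = 0.222). The slope per dose step was 0.30 (SE 0.09, limma adjusted p = 0.0225).

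The call for TWIST1 at 200 mg/kg stands close to the threshold. It was kept in 1 of the 9 fits without 1 tumor (the one without replicate 2 of 200 mg/kg). Without each of the 4 vehicle tumors, or replicates 1, 3, 4 or 5 of 200 mg/kg, the adjusted p was 0.0533 to 0.143, at fold changes of 0.75 to 0.94. The slope kept its call in 14 of 17 such fits, and lost it without vehicle replicate 1 (adjusted p = 0.0752), vehicle replicate 3 (0.0814) or replicate 1 of 200 mg/kg (0.0764). Against untreated tumors, which were 2.60 to 9.46 FPKM with a median of 3.51, the fold change at 200 mg/kg was 0.75 (limma adjusted p = 0.0564). With the 12 libraries with PDGFRA or PTPRC left out, it was 0.76 (limma adjusted p = 0.124).

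ZEB2, CDH2 and SNAI1 also had an unadjusted p under 0.05 at 200 mg/kg without passing the test across all genes. ZEB2 was 3.06, 8.87, 5.15, 7.68 and 6.34 FPKM at 200 mg/kg and 9.24, 8.44, 9.28 and 9.60 FPKM with vehicle, and 4 of the 5 were below all vehicle tumors (log2 fold change -0.55, SE 0.20, limma adjusted p = 0.0738). At 100 mg/kg all 4 tumors, at 4.44 to 7.85 FPKM, were below all vehicle tumors (-0.48, limma adjusted p = 0.261), and the slope per dose step was -0.19 (SE 0.06, limma adjusted p = 0.0507). The untreated tumors at 24 h, at 6.36 to 11.9 FPKM of ZEB2, overlapped with both. Without replicate 2 of 200 mg/kg, the one tumor inside the range of the vehicle group, ZEB2 passed the test, at -0.68 (limma adjusted p = 0.0202). In the other 8 fits without 1 tumor it did not, with an adjusted p of 0.0556 to 0.343.

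CDH2 was 134, 103, 130, 115 and 125 FPKM at 200 mg/kg and 101, 103, 109 and 107 FPKM with vehicle (log2 fold change 0.20, SE 0.08, limma adjusted p = 0.0827), with 4 of 5 above all vehicle tumors. The untreated tumors reached from 101 to 127 FPKM. Without replicate 2 of 200 mg/kg the fold change of CDH2 was 0.26 (limma adjusted p = 0.0175), and in the other 8 fits without 1 tumor CDH2 was not called, with an adjusted p of 0.0822 to 0.252. SNAI1 was listed at 0 in 1 tumor at 200 mg/kg and was 1.55, 1.18, 1.24 and 1.54 FPKM in the others, and all 5 were below the 4 vehicle tumors at 1.64 to 2.92 FPKM (log2 fold change -0.71, SE 0.34, limma adjusted p = 0.195). Depth per library is unknown, so a value of 0 for a gene of this level is no proof of absence.

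The remaining 5 genes showed no difference that the fit could tell from the spread. At 200 mg/kg and 24 h the difference from vehicle was 0.24 for SNAI2 (95% interval -0.23 to 0.72), -0.03 for TWIST2 (-0.62 to 0.56), -0.13 for ZEB1 (-0.47 to 0.20), 0.06 for CDH1 (-0.67 to 0.78) and -0.02 for VIM (-0.17 to 0.13). CDH1, the gene that SNAI and ZEB proteins repress, was 10.6, 6.90, 4.58, 8.84 and 3.38 FPKM at 200 mg/kg and 4.35, 5.28, 9.24 and 6.39 FPKM with vehicle. The interval of CDH1 is wide and that of VIM narrow, so a change that could have been seen in VIM was not detectable in CDH1.

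**Figure D3:**
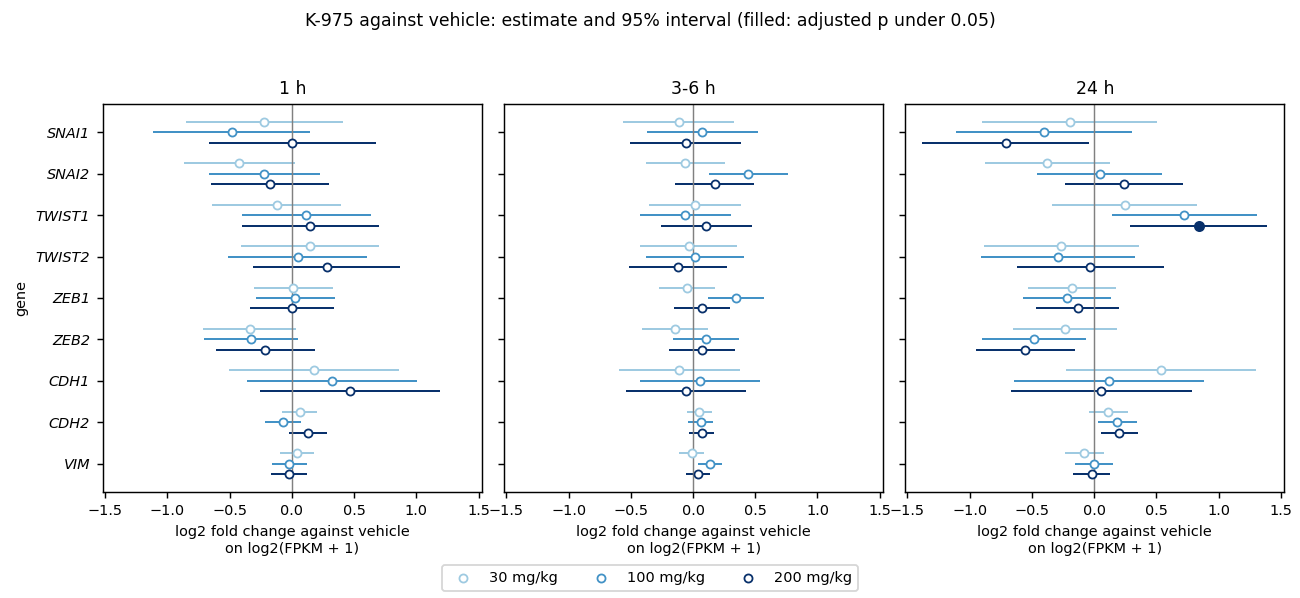
Log2 fold change against vehicle on log2(FPKM + 1) (horizontal axis) of each of the 9 genes at 1 h, 3-6 h and 24 h, with 95% intervals from the limma fit; shades of blue give the dose and a filled point an adjusted p under 0.05. The only filled point is TWIST1 at 24 h and 200 mg/kg, at 0.84.

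The 200 mg/kg effect was also compared between the studies by its own contrast. None of the 9 genes passed, where 0.583% of genes passed for 24 h against 1 h, 1.72% for 24 h against 3-6 h and 0% for 3-6 h against 1 h (604 at an unadjusted limma p under 0.05). For TWIST1 the effect at 24 h exceeded that at 3-6 h by 0.73 (SE 0.33, limma unadjusted p = 0.0309, adjusted p = 0.244) and that at 1 h by 0.69 (SE 0.39, limma adjusted p = 0.449). For ZEB2 it was lower at 24 h than at 3-6 h by 0.62 (SE 0.24, limma adjusted p = 0.158). The effect on TWIST1 at 24 h is therefore not shown to differ from that at the earlier times.

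The gene lists are given for 24 h and 200 mg/kg, and their counts are to be read against the 7.41% of all genes called. On the TEAD list, 5 of 11 genes were lower in these tumors and none was higher. CCN2, which encodes the secreted protein CTGF, was 4.32 ± 1.24 FPKM (SD, n = 5) against 13.2 ± 2.07 (SD, n = 4), and CCN1 107 ± 35.9 against 249 ± 35.0 FPKM. The other 3 were TEAD4, AXL and CRIM1. In the dose trend at 24 h ANKRD1, AMOTL2 and LATS2 fell as well (limma adjusted p = 0.0167, 0.033 and 0.0213). TEAD1, YAP1 and WWTR1 were not called in it. The 11 genes had a median log2 fold change of -0.51, and all 13036 genes one of 0.04.

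Of 33 mesenchymal genes tested, 7 fell, 1 rose and 25 were not called, with a median of -0.19. LOX was 344 ± 123 FPKM at 200 mg/kg (SD, n = 5) and 680.5 ± 90.3 with vehicle (SD, n = 4), a log2 fold change of -1.05. NT5E, an ectonucleotidase of mesenchymal cells, fell by 1.04, while MMP2, a gelatinase, rose by 1.24 from 7.20 to 20.4 FPKM. In the dose trend at 24 h NT5E was not called (limma adjusted p = 0.0582). The actin-binding genes TAGLN and CNN1 fell by 0.72 and 0.83, as did LOXL2 by 0.66, FSTL1 by 0.58 and AXL by 0.53. AXL is also on the TEAD list and CNN1 on the smooth muscle list. The longer list of positive YAP1-TEAD effector genes in the paper holds AXL, TAGLN and FSTL1. It does not hold LOX, NT5E, CNN1 or LOXL2. Of the cadherin, transcription factor and filament genes that fell at 24 h and 200 mg/kg, it holds CDH4, ETS1 and LMNB2. It does not hold YBX1, TGFBR1, PRMT5 or LMNB1, which also fell there. Of the genes that fell in cage group 7, it holds PKP2 but not AJUBA or ESRP2. Whether the falls of these genes are separate from the TEAD response was not tested. SPARC, the highest gene of the mesenchymal list, was not called (-0.10, limma adjusted p = 0.807).

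Of 26 epithelial genes tested, 3 rose and none fell, with a median of 0.03, close to that of all genes. LLGL2, a polarity gene, rose by 0.75, the desmosomal gene DSP by 0.52 and the keratin gene KRT19 by 0.32. The highest of the list, KRT18 and KRT7, were not called (-0.04 and 0.33). In the dose trend at 24 h the same 3 genes rose and ESRP2 fell, by 0.15 per step (limma adjusted p = 0.0235). Among the catenins and other cadherin partners, 3 of 13 rose and none fell: JUP, which encodes plakoglobin, from 14.9 to 26 FPKM, CTNND1, which encodes p120-catenin, from 48.2 to 64.1 FPKM, and AFDN, which encodes afadin, from 229 to 293 FPKM. CTNNA1, which encodes α-catenin, was not called (-0.05).

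Among the other cadherins, CDH11 and CDH4 moved apart. CDH11, a mesenchymal cadherin at 309 FPKM on average, above CDH1, CDH2 and the others of the list, rose from 284 ± 16.1 to 399 ± 61.8 FPKM (SD, n = 4 and 5; log2 fold change 0.48, limma adjusted p = 5.18e-05), with all 5 tumors above all vehicle tumors. CDH4, which encodes R-cadherin, fell from 19.4 ± 0.47 to 14.2 ± 0.93 FPKM (-0.42, limma adjusted p = 0.00681), again in 5 of 5. Both were also called at 100 mg/kg, CDH11 at 0.44 and CDH4 at -0.49. The other 7 of the 9 cadherin genes tested were not called, and the remaining 12 of the list of 21 were under the filter.

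Of 11 other EMT transcription factors tested, SOX4 and SOX9 rose, by 0.72 and 0.49, and ETS1 and YBX1 fell, by 1.12 and 0.24. ETS1 was 40.5 ± 19.8 FPKM at 200 mg/kg (SD, n = 5) and 82.0 ± 5.94 with vehicle (SD, n = 4), and it was also lower at 100 mg/kg, by 1.17. HIF1A, the highest of the list at 148 FPKM on average, was not called (-0.24). Among genes of TGF-beta and other inducers, 1 of 15 was called, the receptor gene TGFBR1, which fell by 0.82. Of 20 partners of the SNAI and ZEB repressors, 1 was called, PRMT5, an arginine methyltransferase, which fell by 0.42. CTBP1, the most abundant, was at 0.13. In the dose trend at 24 h PRMT5 was not called (limma adjusted p = 0.207). LATS2 and AJUBA of the same list were, at -0.20 and -0.10 per step (limma adjusted p = 0.0213 and 0.0339). The nuclear lamin genes LMNB1 and LMNB2 fell by 0.73 and 0.85, 2 of 8 filament genes besides VIM, while PLEC and LMNA were not called (-0.09 and 0.08).

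Of the markers of cell types, the mesothelial genes MSLN and CALB2 rose, by 0.40 and 0.39, 2 of 8. In the dose trend at 24 h CALB2 passed (limma adjusted p = 0.0405) and MSLN did not (limma adjusted p = 0.108). The 8 summed to 1784 to 2546 FPKM at 200 mg/kg against 1596 to 1632 FPKM with vehicle. These sums are mostly KRT5 and CALB2 (933 and 613 FPKM on average over all tumors), and KRT5 was not called. None of 3 endothelial, 4 leukocyte and 6 fibroblast genes tested was called, and CNN1 was the 1 of 3 smooth muscle genes. The 6 fibroblast markers summed to 774 to 1420 FPKM against 873 to 1070 FPKM, and the 6 leukocyte markers, CD68 for the most part, to 128 to 209 FPKM against 148 to 226 FPKM. No erythroid gene was above the filter. In bulk tumors, fewer cells of a type and less RNA per cell cannot be told apart. Here neither can reads of mouse host cells and of the human tumor cells, so these sums do not give amounts of host cells.

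**Figure D4:**
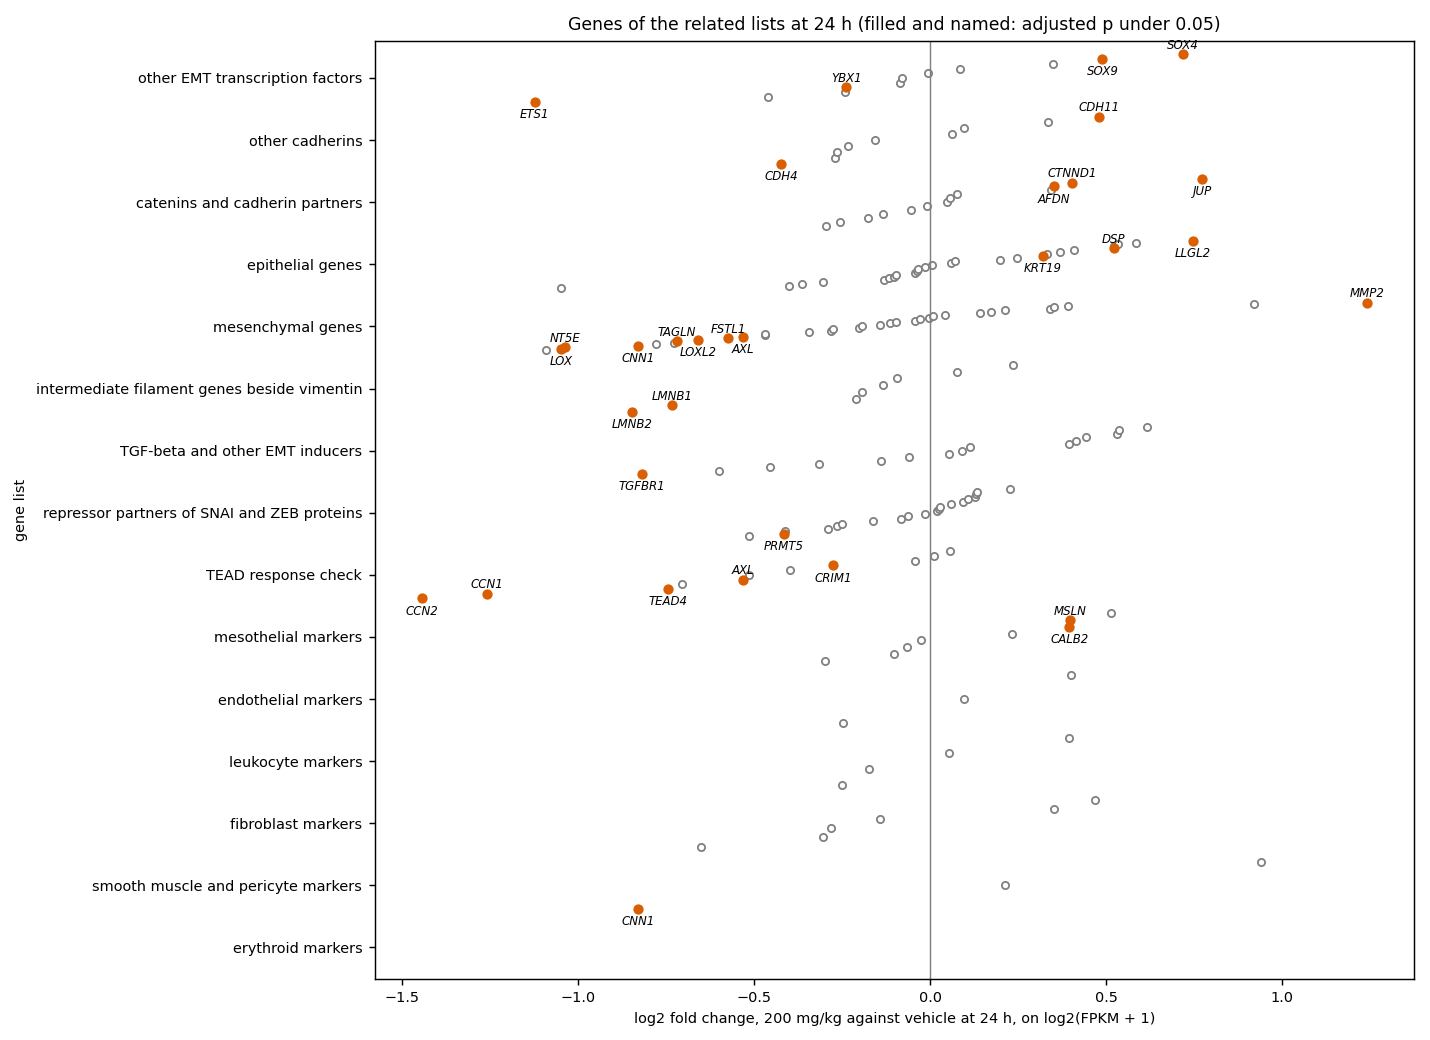
Log2 fold change at 24 h, 200 mg/kg against vehicle, on log2(FPKM + 1) (horizontal axis) for the genes above the filter of each list (vertical axis); filled and named points have an adjusted p under 0.05. The 7 mesenchymal genes that fell stand left of 0 with MMP2 as the one filled point of that list on the right, and the epithelial and cadherin partner genes called stand right of 0.

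Few genes of the lists were called at the other doses and times. At 24 h with the middle dose, CTNND1 rose by 0.31 and TAGLN fell by 0.59, besides the 3 genes given above (ETS1, CDH4 and CDH11). At 3-6 h and 200 mg/kg, AJUBA fell by 0.37, and of the TEAD list CCN1, CCN2 and AMOTL2 fell. No gene of any list was called at 1 h, or at 30 mg/kg at any time.

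The 9 genes were also compared with each other across tumors, on deviations from the group mean, so that neither dose nor study enters. Of 36 pairs, 2 passed a permutation test with 100000 resamples within groups after adjustment over the pairs, both for Pearson's r and Spearman's rho. CDH1 and VIM went in opposite directions: r was -0.554 (permutation p = 1e-05, the smallest the resamples can give, adjusted p = 0.00036) and rho -0.521 (adjusted p = 0.00108) over 91 tumors. Within the studies r was -0.402 at 1 h (24 tumors), -0.375 at 3-6 h (45) and -0.775 at 24 h (22). Without the 2 tumors farthest from the median of CDH1, r was -0.503.

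ZEB2 and CDH2 also went in opposite directions, with r = -0.468 (permutation p = 8e-05, adjusted p = 0.00144) and rho = -0.476 (adjusted p = 0.00108). By study r was -0.596, -0.238 and -0.703, weakest at 3-6 h, and it was -0.425 without the 2 extreme tumors of ZEB2. The pair that the repressor role of ZEB2 concerns, ZEB2 and CDH1, had r = -0.330 (permutation p = 0.00625, adjusted p = 0.075), which does not pass. For the 5 other repressors r with CDH1 was between -0.108 and 0.090, with an adjusted permutation p of at least 0.62. For ZEB1 and CDH1 the values by study were unlike, with r = -0.526 at 1 h, 0.125 at 3-6 h and -0.111 at 24 h, given as a description.

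**Figure D5:**
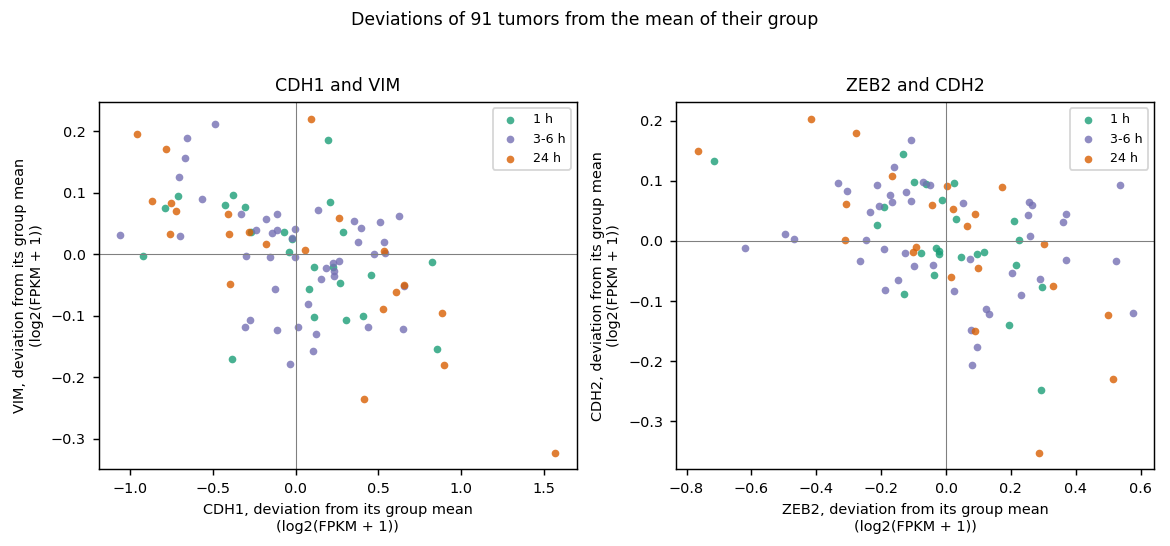
Deviation of each of 91 tumors from the mean of its group on log2(FPKM + 1), CDH1 (horizontal) against VIM (vertical) on the left and ZEB2 (horizontal) against CDH2 (vertical) on the right; colors give the study. Both clouds slope downward (r = -0.554 and -0.468).

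The genes most like each of the 9 across the same 91 tumors, by Pearson's r of the deviations, are given as a description. For CDH2 they were PCDHB14, a protocadherin (r = 0.78), LTBP3 (0.77) and PLXDC2 (0.768), and for VIM TGFBI (0.744), PSG5 (0.714) and the collagen gene COL6A2 (0.695). For ZEB2 they were ACTN1 (0.725), PTBP3 (0.717) and ETS1 (0.677), the last of which was lower at 24 h as given above. For CDH1 they were TRAM1 (0.676), TMEM255A (0.625) and ANXA2 (0.591). For SNAI1 they were the interferon-induced genes ISG15 (0.626), UBE2L6 (0.592) and GBP3 (0.579), for TWIST2 ARSJ (0.537), DSE (0.535) and ISM2 (0.517), and for ZEB1 PRMT1 (0.534), PML (0.519) and HDGF (0.503). TWIST1 had RAI1 and FGFR1 (both 0.454) and RPL11 (0.452), and SNAI2 PSMB1 (0.424), ZNF524 (0.42) and ZKSCAN8 (0.413). All genes of a library share its depth and its tumor, and 13036 genes were searched for each.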

How the data were processed

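Tumor RNA was made into libraries with the KAPA RNA HyperPrep kit, enriched with capture probes and read from both ends on a NextSeq. The authors deposited FPKM per gene and library; the submitters' processing notes name STAR and GRCh38, while the quantification tool, the annotation, the use of strand and the treatment of mouse reads are not given in the sources used here. Of 20555 entries, 316 further entries of 284 gene IDs were left out (the entry with the highest mean was kept), and 32 blank cells were read as 0. Genes that reached an FPKM of 1 in 4 or more libraries were tested on log2(FPKM + 1) with limma 3.58.1 (R 4.3.3, eBayes with trend and robust), 1 coefficient per group, in the 91 libraries where 10000 or more genes reached that level. P-values were adjusted (Benjamini-Hochberg) over 13036 genes per comparison, with a threshold of 0.05. The script was tested on simulated data.

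Without counts, no interval for counting error can be given, and the number of tumors limits the precision. Groups come from GEO's labels, and replicates are separate tumors numbered in the order of the samples. The 9 genes, the lists and the choice of 91 libraries were made with earlier results of these data known. Named were the 9 genes, from each list up to 4 called genes with the largest change at 200 mg/kg and 24 h and its 2 most abundant, and for each of the 9 the 3 genes with the highest r. The comparison of untreated tumors between studies was chosen after the values were seen. So were the 2 alternatives that leave out libraries by depth or by PDGFRA and PTPRC. Further named genes were too (AJUBA, AMOTL2, ESRP2, PKP2, MMP3, CD68, KDR, DCN, LUM, PTPRC, LATS2, genes under the filter and called genes beyond the first 4 of a list). Alternatives tried were all 94 libraries, another pseudocount, no filter, 1 study alone, quantile normalization, limma without trend and robust, untreated or 1 vehicle cage group as control, and each tumor left out in turn. A result on 1 gene of the mesenchymal list is not reported here, and the counts leave it out. Promoter letters were searched in RefSeq windows.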

Additional observations from a re-analysis of the deposited data

Results flagged for a closer look

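Within groups of 4 or 5 tumors, 8 of 171 sets of values held 1 tumor whose gap to the nearest other exceeded Dixon's 95% critical value of the range, and chance gives about 1 in 20. SNAI1 was 6.05 FPKM in replicate 5 of vehicle cage group 3 at 3-6 h (others 1.82 to 2.38) and 0 in replicate 1 of 200 mg/kg at 24 h (others 1.18 to 1.55). SNAI2 was 4.82 FPKM in untreated replicate 1 at 24 h (others 2.18 to 2.81), and TWIST1 9.46 FPKM in untreated replicate 4 at 24 h (others 2.60 to 4.02). TWIST2 was 4.22 FPKM in replicate 3 of cage group 5 (200 mg/kg) at 3-6 h (others 2.52 to 2.73), and ZEB1 22.8 FPKM in replicate 3 of 100 mg/kg at 1 h (others 14.1 to 15.6). VIM was 747 FPKM in replicate 2 of 200 mg/kg at 1 h (others 692 to 698) and 662 FPKM in replicate 5 of 100 mg/kg at 1 h (others 711 to 728). All these tumors stayed in the fits.

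The 3 libraries left out of the comparisons held 7 values above the highest control tumor of their study. In the library of 702 genes (30 mg/kg at 24 h, replicate 1), ZEB1 was 858 FPKM, ZEB2 486 and CDH2 205, against at most 21.5, 11.9 and 127 FPKM in the 9 control tumors. In that of 7196 genes (100 mg/kg at 24 h, replicate 5), ZEB1 was 73.3 FPKM. In that of 8531 genes (200 mg/kg at 1 h, replicate 1), TWIST1 was 19.5 FPKM, CDH1 14.1 and VIM 896, against at most 7.66, 11.8 and 785 FPKM in the 10 control tumors. FPKM are scaled to the total of the library, and these libraries hold fewer genes than the others.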

How the results depend on the processing

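The count of the 9 genes called was 0 under each alternative run for every comparison not named here. At 24 h and 200 mg/kg it was 1 and became 0 with all 94 libraries, a pseudocount of 0.1, no filter, only that study or untreated controls, 2 (ZEB2 and CDH2) with quantile normalization, and 0 without libraries with PDGFRA or PTPRC. The trend at 24 h had 1 and became 0 with all 94 libraries, only that study or without libraries with PDGFRA or PTPRC, 3 with quantile normalization, and 2 without limma's trend and robust options or without libraries of low relative depth. Cage group 7 had 3 and became 0 with all 94 libraries, vehicle cage group 3 alone, or either added set of libraries left out, 1 with untreated controls (VIM) or vehicle cage group 2 alone (ZEB1), and 2 with a pseudocount of 0.1 or only that study (SNAI2 lost) or without limma's trend and robust options (VIM lost). The limma adjusted p of SNAI2 was 0.0565 and 0.0503 there, and that of VIM 0.0637. Over 9 alternatives, beside those chosen after seeing the data, SNAI2 was called in 3, ZEB1 in 6 and VIM in 5. At 24 h and 30 mg/kg, 0 became 1 with all 94 libraries (VIM, at -1.98), and between untreated tumors of 3-6 h and 24 h 3 became 0. Among all genes, the 24 h comparisons called 5, 146 and 966 at 30, 100 and 200 mg/kg and 927 in the trend. With all 94 libraries these were 2960, 2, 0 (592 at an unadjusted limma p under 0.05) and 5, with only that study 0, 36, 476 and 487, and without libraries with PDGFRA or PTPRC 2, 15, 509 and 362. Cage group 7 went from 173 to 0, 100 (vehicle cage group 3) and 54 (PDGFRA or PTPRC), and untreated tumors of 3-6 h and 24 h from 568 to 1 with all 94 libraries. The 24 h mean of ZEB1 at 30 mg/kg was then 184 FPKM against 15.7. Leaving out 1 tumor at a time, the counts ran from 0 to 3 at 200 mg/kg and in the trend at 24 h, 0 to 1 at 100 mg/kg at 24 h, 0 to 3 for cage group 7, and 2 to 3 between untreated tumors; all others stayed at 0. No called value changed sign. Except where stated, the cause was not tested. No paired analysis was possible because replicates are numbered in sample order and no number links tumors of different groups. Depth per library is unknown, and genes near 1 FPKM (SNAI1) are the least precise.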
